A study of Apis mellifera with 12 samples.

Results

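The control fat body pools of the study were 6 of its 12 samples, chosen by their label dsRNA-GFP. Each was a pool of small RNA from 5 honey bee workers (Apis mellifera) that had been injected at emergence with 2 µL of double-stranded RNA against green fluorescent protein (GFP), at 10 µg/µL, as the sham treatment. The workers were adults 15 days old and the labels call them foragers. The tissue was the abdominal carcass lined with fat body, and each bee gave 400 ng to a pool of 2 µg. The samples held no uninjected bees, and the levels below are those of injected workers, and the dsRNA-Vg pools, in which vitellogenin was targeted, were not compared here. Each pool was hybridised to 1 array with 168 bee miRNA reporters of 18 spots each, and a reporter is named here by its miRNA.

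MicroRNAs are short RNAs that lower the output of target mRNAs, which they recognise mainly through the seed, bases 2 to 8 from the 5′ end. The insect fat body combines the storage role of adipose tissue with the metabolic and secretory roles of a liver, and in the bee it makes vitellogenin, a yolk precursor that also circulates in sterile workers. In the fly, miRNAs of the fat body act in insulin signalling, fat storage and amino acid use. An abdominal carcass also holds muscle, nerve and epidermis, and in a tissue lysate fewer cells of a type and less RNA per cell cannot be told apart.

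The sequences below are the targets that the scanner files give for the reporters the results turn on, with the seed in capitals. The first 5 are the brightest reporters.

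miR-8: uAAUACUGucagguaaagauguc

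miR-276: uAGGAACUucauaccgugcucu

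miR-2: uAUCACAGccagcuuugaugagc

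miR-307: uCACAACCuuuuugagugagcga

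miR-317: uGAACACAgcuggugguaucucagu

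The next set shares the seed of miR-2 and is shown because its members spanned the range of the array from among the brightest to the background.

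miR-13b: uAUCACAGccauuuuugacgauu

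miR-13a: uAUCACAGccauuuugaugag

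miR-11: cAUCACAGgcagaguucuaguu

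miR-2944: uAUCACAGcaguaguuaccuggu

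The last set holds reporters that varied between pools, with no seed in common.

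miR-750: cCAGAUCUaacucuuccagcuc

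miR-1175: uGAGAUUCacuccuccaacuuac

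miR-79: uAAAGCUAgauuaccaaagca

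miR-3739: uUGGGAGGgggagagagcagcu

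miR-305: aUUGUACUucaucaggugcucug

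miR-278: uCGGUGGGacuuucguccguuu

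bantam: uGAGAUCAuugugaaagcugauu

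The 6 arrays differed in background before any miRNA was considered. Empty spots had median intensities of 247.9 to 491.3, and pool 1 had both the brightest empty spots and the widest spread among the spots of a reporter, with a median coefficient of variation of 9.01% against 5.08% to 7.97% on the other 5 arrays. Detection on an array required that 50% or more of the 18 spots of a reporter be brighter than the 95th percentile of the empty spots there. By this rule 168, 155, 143, 37, 47 and 139 reporters were detected in pools 1 to 6. In pools 1, 2, 3 and 6 the median of the dimmer reporters itself lay above that percentile, so detection there was lenient. With the bound taken from the dimmer miRNA reporters instead, 34 to 55 reporters were detected per array. The deposited intensities of different pools had Spearman correlations of 0.733 to 0.905 over all reporters and 0.814 to 0.968 over those detected on all arrays, a description across miRNAs that share arrays and probes. No pair of arrays held identical values.

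Of 168 miRNAs, 36 (21.4%) were detected on all 6 arrays, and with the bound from the dimmer reporters 31 (18.5%) were. The 2 sets shared 30 miRNAs. miR-1175 was in the second set only, and miR-71, miR-79, miR-125, miR-3719, miR-3739 and miR-3793 were in the first only. The count depended on pool 4, without which it was 47, and it was 21 with the 99th percentile of the empty spots. Of 92 miRNAs with a number of 3000 or above, 4 were detected on all arrays, against 32 of the 76 other miRNAs. The 4 were miR-3477, miR-3719, miR-3739 and miR-3793, and only miR-3477 was also detected by the bound from the dimmer reporters. Of the 36 detected targets 26 began with U, a share of 72.2%, and of the other 132 targets 58 did, a share of 43.9%. The median GC content was 45.5% among the detected targets and 44.5% among the others.

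A few miRNAs gave most of the signal. Reporters differ in how well they hybridise, so the shares and ranks that follow describe the array signal of these pools and are not molar abundances. In the deposited value table, whose values are linear intensities of unstated background correction and normalization, the brightest miRNA of the mean, miR-8, took 24.2% ± 2.38 of the summed intensity of a pool (SD, n = 6). The 5 brightest took 62.0% ± 2.84, the 10 brightest 79.2% ± 0.67 and the 20 brightest 92.7% ± 0.49 (SD, n = 6 each). In every pool 3 or 4 miRNAs made up 50% of the signal and 16 or 17 made up 90%. The 36 miRNAs detected on all arrays held 96.6% ± 0.57 of the signal, and the other 132 together held 3.43% ± 0.57.

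**Figure D1:**
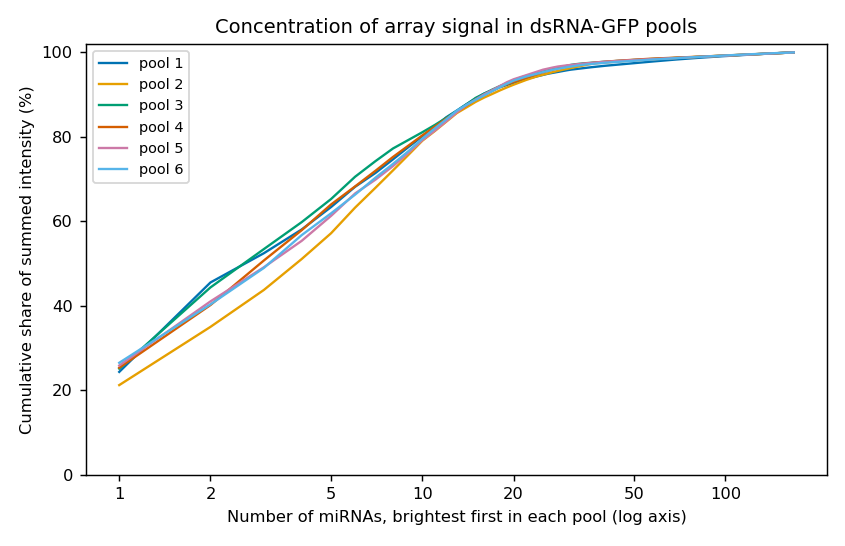
Cumulative share of the summed deposited intensity (vertical axis, percent) against the number of miRNAs counted from the brightest in each pool (horizontal axis, log scale), 1 line per dsRNA-GFP pool. The lines lie apart over the first few miRNAs, where the 5 brightest of the mean held 57.2% to 65.3% of a pool, and come together near 20 miRNAs, where the 20 brightest of the mean held 92.1% to 93.4%.

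miR-8, a regulator of insulin signalling in the fat body of the fly, had intensities of 33738, 32766, 42139, 41608, 42071 and 42736 in pools 1 to 6. Pools 1 and 2 were the low ones. miR-276, which keeps egg hatching synchronous in locusts, had 38803, 21277, 32225, 24370, 24730 and 22287. It was highest in pools 1 and 3, and in pool 1 it exceeded miR-8, which ranked first in the other 5 pools. In the scanner values less the median of the empty spots, miR-276 was above miR-8 in pool 3 as well, with shares of 27.9% against 24.6%, and in pool 1 with 33.69% against 19.98%. The order of these 2 reporters was thus not the same in all pools, and it depended on the processing in pool 3.

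In the deposited values miR-2 had rank 3 and miR-307 rank 4 in all 6 pools. The rank of miR-307 depended on the processing. In the scanner values less the median of the empty spots, miR-317 was above miR-307 in pools 1, 3 and 5. The shares there were 4.06% against 3.75%, 5.20% against 4.39% and 5.74% against 5.70%. miR-2, of a family that represses cell death genes in the fly, had an intensity of 14010 ± 2116 and a share of 8.66% ± 1.19 (SD, n = 6), with a range of 11023 to 17323. miR-307 had 10916 ± 1255 and a share of 6.76% ± 0.80 (SD, n = 6). miR-317 followed with 8859 ± 846 and miR-277, which in the fly controls the breakdown of branched-chain amino acids, with 7932 ± 1228 (SD, n = 6 each). Their ranges, 7633 to 10003 for miR-317 and 6442 to 9626 for miR-277, overlapped, and miR-317 was the brighter in 4 of 6 pools. bantam, a growth regulator that blocks cell death in the fly, had 5919 ± 2225, miR-87 had 5148 ± 955, miR-34, which is tied to ageing of the fly brain, 4942 ± 779, and miR-12 3779 ± 1357 (SD, n = 6 each). In the deposited values, 3 of the 19 neighbouring pairs among the 20 brightest miRNAs kept their order in all 6 pools. They were miR-276 over miR-2, miR-2 over miR-307 and miR-307 over miR-317. The other 16 changed places in at least 1 pool, so from rank 5 downwards no neighbours kept their order in every pool.

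**Figure D2:**
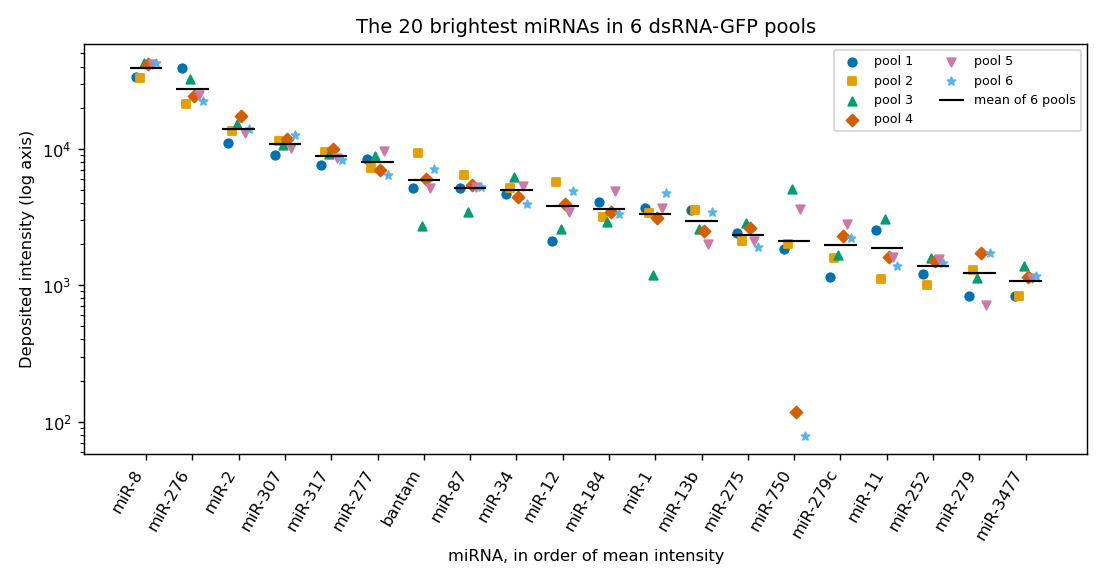
Deposited intensity (vertical axis, log scale) of the 20 miRNAs with the highest mean, in order of that mean (horizontal axis), with 1 symbol per dsRNA-GFP pool and a line at the mean of 6 pools. In these deposited values miR-2 had rank 3 and miR-307 rank 4 in every pool. miR-750 split into 4 pools at 1851 to 5040 and 2 pools at 79 and 118, and miR-1 was low in pool 3.

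Among 7 miRNAs of fat storage and insulin signalling, 5 were detected on all arrays, where 36 of all 168 reporters (21.4%) were. Each count of list members below is to be read against that share, and the lists are small. Besides miR-8, miR-277 and bantam these were miR-305, with an intensity of 836 ± 510, and miR-278, which sets the response to insulin in flies, with 375 ± 248 (SD, n = 6 each). miR-33, which represses lipid genes in mammals, had intensities of 13 to 24 and was detected on 4 arrays. miR-14, whose loss makes flies store more fat, had 477, 59, 82, 148, 36 and 44 in pools 1 to 6 and was detected on 4 arrays. It was highest in pool 1. On that array 1 of its 18 spots read 5619 while the median spot read 576.9, and no spot of the other 5 arrays read over 1000. The part of this bright spot in the deposited value was not tested. The members of this list together held 33.7% ± 2.10 of the signal (SD, n = 6), most of it miR-8.

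Of the miRNAs of insect reproduction, 6 of 9 listed were on the array and 5 were detected on all arrays. miR-275, which is needed for blood digestion and egg development in mosquitoes, had 2334 ± 365 (SD, n = 6) and ranged from 1894 to 2845. miR-305, whose gene lies beside that of miR-275 in the RefSeq annotation of assembly Amel_HAv3.1 with 0 genes between them, ranged from 299 to 1590 in the same pools. miR-989, which marks the ovary in mosquitoes, had 53.8 ± 18.3 (SD, n = 6) and was not detected on all arrays.

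Reporters that share a seed differed widely in signal. There were 8 seeds shared by 2 to 5 reporters, 21 reporters in all. The seed AUCACAG was the largest group: miR-2 had 14010 ± 2116, miR-13b 2937 ± 671 and miR-11, which limits cell death in the fly, 1876 ± 743, against 43.7 ± 24.5 for miR-13a and 39.2 ± 12.6 for miR-2944 (SD, n = 6 each). The last 2 were not detected on all arrays. Counted without gaps, miR-13a matches miR-13b at 15 positions in 1 unbroken run of 15 bases. On the same count miR-2 matches miR-13b at 18 positions and miR-13a at 13. Such a count leaves out bases that line up only with a gap, such as uuugaugag near the end of both miR-13a and miR-2. It therefore does not rank these sequences by likeness. Together this seed held 11.7% ± 1.02 of the signal (SD, n = 6). Under the seed GACUAGA, miR-279c had 1956 ± 601 and miR-279 1234 ± 421, against 51.7 ± 22.5 for miR-996 and 40.8 ± 21.6 for miR-279b (SD, n = 6 each), which were not detected on all arrays.

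Genes that lie near each other did not all have reporters of equal signal. The genes of miR-34, miR-277 and miR-317 lie on 1 chromosome with 1 to 3 other genes between any pair in the RefSeq annotation. Of these miRNAs 3 of 3 were detected on all arrays and held 13.5% ± 1.11 of the signal (SD, n = 6). In the let-7 complex, a set tied to developmental timing, 3 of 3 were detected, with 555 ± 138 for let-7, 436 ± 80.1 for miR-100 and 163 ± 89.0 for miR-125 (SD, n = 6 each). miR-3477 lies between miR-12 and miR-283 in the RefSeq annotation with 0 other genes among them. miR-12 and miR-3477, at 1082 ± 212, were detected on all arrays, and miR-283, at 36.3 ± 17.0, was not (SD, n = 6 each). Of miR-2, miR-71, miR-13a and miR-13b, which were listed as a further cluster, all but miR-13a were detected, 3 of 4. Of the neighbours miR-9b, miR-79 and miR-306, with which miR-9a was listed although its gene is on another chromosome, miR-79 alone was detected on all arrays, and not by the bound from the dimmer reporters. The miR-92 family, with 2 reporters, and the group of miR-10, miR-993 and miR-iab-4 of the Hox cluster, with 3, had 0 detected on all arrays and intensities of 11 to 111.

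Markers of other tissues differed in how far they stood above background. Both muscle reporters were detected on all arrays. miR-1, the miRNA of differentiated muscle, had 3659, 3392, 1190, 3107, 3689 and 4753 in pools 1 to 6, with pool 3 below all others. miR-133, which shares its muscle role in vertebrates, had 181, 330, 428, 605, 422 and 471, with pool 1 the lowest. The epithelial and sensory reporters miR-263, miR-263b and miR-31a were detected on all arrays at means of 546 ± 113, 521 ± 126 and 210.5 ± 98.99 (SD, n = 6 each). The sequences of miR-263 and miR-263b share a run of 19 bases, and their reporters may not be independent. Among 4 miRNAs of growth and cell survival 3 were detected on all arrays: bantam, miR-11 and miR-184, which acts in the female germline of the fly and had 3622 ± 728 (SD, n = 6). Of the 8 nervous system reporters 0 were detected on all 6 arrays, where the share over all reporters was 21.4%, so a count this low in a list of 8 says little about nerve. Their highest mean was 97.0 for miR-210, and miR-124, which marks neurons, had 40 to 74. Of the 2 ovary reporters 0 were detected on all arrays. The part of these tissues in the signal of other miRNAs was not tested.

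**Figure D3:**
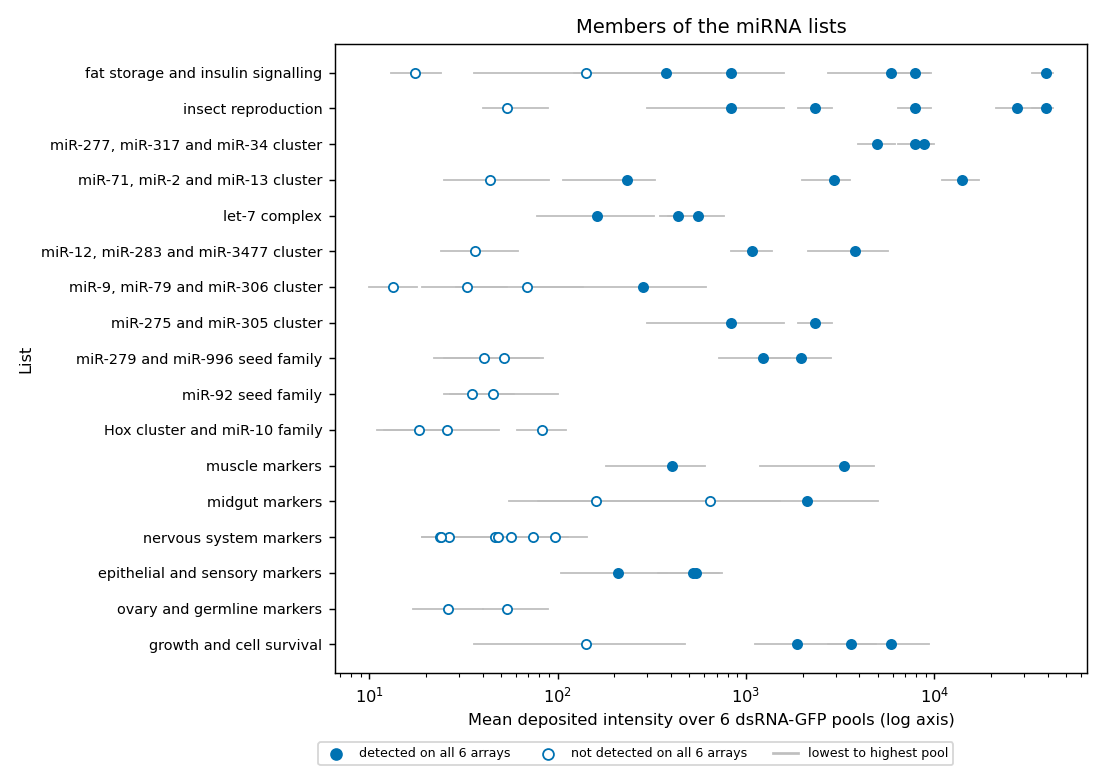
Mean deposited intensity over 6 dsRNA-GFP pools (horizontal axis, log scale) of the members of each miRNA list (vertical axis), with a grey line for each member's lowest to highest pool. Filled circles were detected on all 6 arrays, as were all reporters of muscle and epithelium on the array, and open circles were not, as was the case for all 8 nervous system reporters.

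The miRNAs differed in how much they varied between pools. Over the 36 detected on all arrays, the SD between pools of log2 intensity had a median of 0.41 and ran from 0.14 to 2.59. Brighter miRNAs varied less: the median SD was 0.35 in the brighter 18 and 0.56 in the dimmer 18, and level and SD had a Spearman correlation of -0.63 across the 36 miRNAs, a description over reporters of the same arrays. With background correction by normexp and quantile normalization of the scanner values the median SD was 0.29.

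miR-317 had the smallest SD, 0.14 on the log2 scale, followed by miR-316 (0.15), miR-307 (0.17), miR-8 (0.18), miR-2 (0.22), miR-277 (0.22), miR-275 (0.22) and miR-34 (0.23). miR-316 had 641, 706, 743, 841, 823 and 799 in pools 1 to 6, a highest over lowest of 1.31, at a level far below the other 7. Quantile normalization fixes the value of a reporter of constant rank, and under it miR-2 had an SD of 0.031 while miR-8 had 0.29. Scaled to the median of the detected miRNAs in each pool, the SD of miR-316 was 0.076 and that of miR-277 was 0.33. All 8 lay under the median SD of 0.45 of the scaled values, and all but miR-277, at 0.298, lay under that of 0.294 after normexp and quantile normalization.

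**Figure D4:**
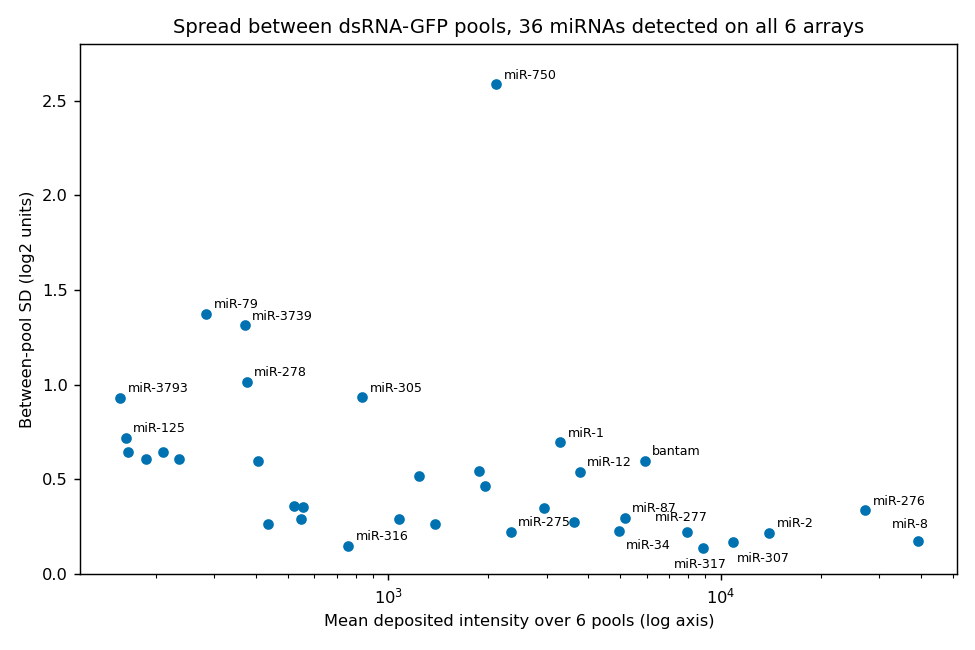
SD between the 6 dsRNA-GFP pools in log2 units (vertical axis) against mean deposited intensity (horizontal axis, log scale) for the 36 miRNAs detected on all arrays, with the brightest, steadiest and most variable named. miR-750 lies alone at an SD of 2.59, above miR-79 at 1.37, miR-3739 at 1.32 and miR-278 at 1.02.

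miR-750 was the most variable of the 36. It had intensities of 1851, 2000, 5040, 118, 3602 and 79 in pools 1 to 6, a highest over lowest of 63.8, and its rank ran from 8 to 44. Pools 4 and 6 stood apart as the low ones. miR-1175, whose gene is the neighbour of miR-750 in the RefSeq annotation with 0 genes between them, had 318, 902, 1000, 77, 1507 and 55, and pools 4 and 6 were again the low ones. Since the pools fall into separate levels for both, no correlation is given. The sequences share a longest run of only 4 bases. miR-281, also listed as a midgut miRNA, had 85, 295, 254, 92, 143 and 89, with pools 2 and 3 the highest, and was detected on 5 arrays. The share of the 3 midgut reporters together ran from 0.138% to 3.76% of a pool. Whether gut tissue was present in some pools was not tested.

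miR-79 had 64, 509, 82, 298, 134 and 613 in pools 1 to 6, an SD of 1.37 on the log2 scale. miR-305, which acts in gut stem cells of the fly, had 299, 1272, 522, 884, 447 and 1590. miR-3739 had 195, 673, 70, 817, 180 and 288, and miR-3793 had 73, 337, 59, 144, 119 and 205. In all 4 miRNAs pools 2, 4 and 6 were above pools 1, 3 and 5. miR-278 followed another order, with 122, 281, 610, 740, 167 and 332 and with pools 3 and 4 the highest. miR-125 had 326, 78, 188, 158, 108 and 117 and was highest in pool 1 in these deposited values. With normexp and quantile normalization its highest pool was pool 3, at 7.83 on the log2 scale against 7.74 in pool 1. The spread of most of these depended on the processing. After normexp and quantile normalization the SD was 0.16 for miR-125, under the median miRNA of that treatment at 0.29, against 0.72 in the deposited values. In the same comparison it was 0.70 against 1.37 for miR-79, 0.72 against 1.32 for miR-3739, 0.43 against 0.93 for miR-3793, 0.65 against 1.02 for miR-278, 0.69 against 0.93 for miR-305 and 1.84 against 2.59 for miR-750. The normexp step adds an offset of 50 to every spot, and its part in these SDs of dim miRNAs was not tested. miR-1 completed the 8 most variable, and without pool 3 its SD was 0.23 in place of 0.70.

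Outside the 36, miR-3789 missed detection on 1 array and was left out of the ranking. It had 831, 510, 582, 736, 50 and 133 in pools 1 to 6, with pools 5 and 6 the low ones. This was yet another order of pools. miR-14, described above, missed detection on 2 arrays and had an SD of 1.38 on the log2 scale, with pool 1, the array of its bright spot, the highest.

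The likeness of miRNAs over the pools is given as a description. For the 8 most variable miRNAs other than miR-750 the closest of the other 35 was taken by Pearson correlation of log2 intensity over the 6 pools, and since the partner was picked as the highest, a high r was to be had by the choice and no p is given. miR-79 was closest to miR-375, a miRNA of insulin-secreting cells in mammals (r = 0.98, Spearman rho 1.00, r without the 2 farthest pools 0.96). miR-305 was closest to miR-79 (r = 0.97, rho 0.94, without the 2 farthest pools 0.93). miR-3793 was closest to miR-12 (r = 0.95, rho 0.94, without the 2 farthest pools 0.99) and miR-3739 to bantam (r = 0.85, rho 0.83, without the 2 farthest pools 0.98). miR-278 was closest to miR-2 (r = 0.95, rho 1.00, without the 2 farthest pools 0.97) and miR-125 to miR-276 (r = 0.93, rho 0.83, without the 2 farthest pools 0.78). The likeness of miR-1 and miR-87 rested on pool 3, the lowest pool of both: r was 0.85, rho was 0.14 and r without the 2 farthest pools was -0.31. After normexp and quantile normalization, an alternative chosen after seeing the data, r was 0.92 for miR-79 and miR-375, 0.90 for miR-305 and miR-79, 0.91 for miR-3793 and miR-12 and 0.82 for miR-3739 and bantam. It was lower for miR-278 and miR-2, at 0.64, and for miR-125 and miR-276, at 0.74. These last values cannot show whether the likeness weakened, because quantile normalization fixed most values of miR-2 and miR-276 by rank. On the log2 scale miR-2 had 13.56 in each of pools 2 to 6, and miR-276 had 14.66 in each of pools 2, 4, 5 and 6.

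**Figure D5:**
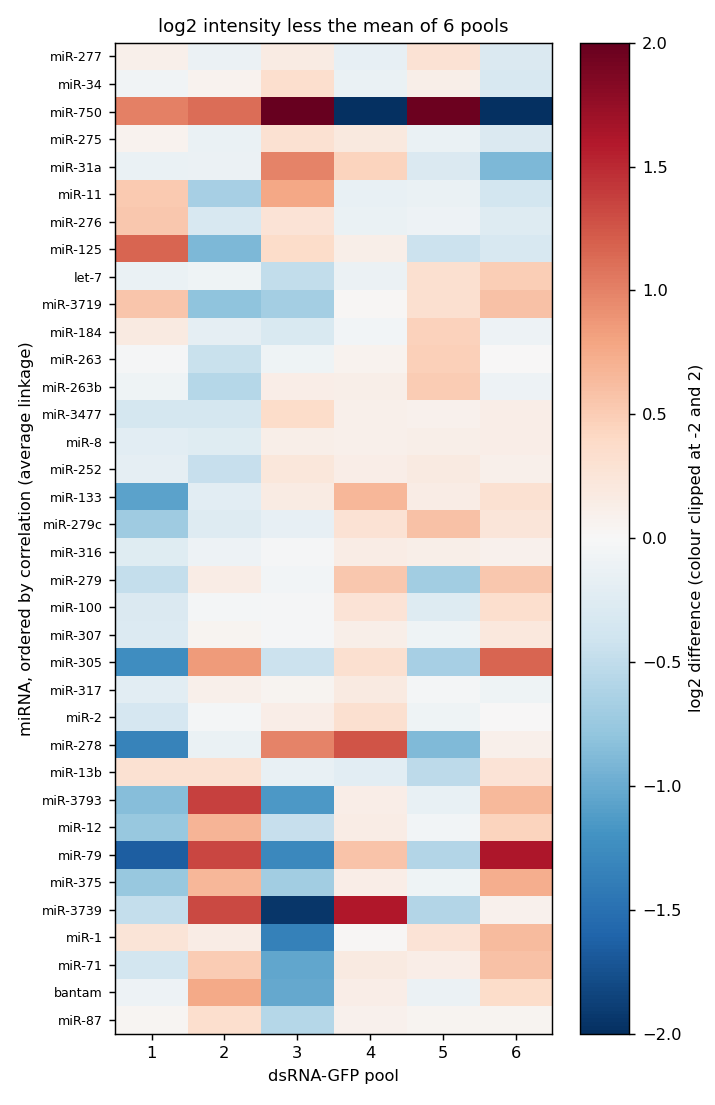
log2 deposited intensity of the 36 miRNAs detected on all arrays less its mean over the pools (colour, clipped at both ends), with dsRNA-GFP pools along the horizontal axis and miRNAs ordered by correlation along the vertical axis. miR-79, miR-305, miR-375, miR-12, bantam and miR-71 are red in pools 2 and 6 and blue in pools 1 and 3, and miR-276 and miR-11 are red in pools 1 and 3.

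The same 3 pools were the highest for many of these miRNAs. Of the 36, 11 had pools 2, 4 and 6 above each of pools 1, 3 and 5, more than for any other of the 20 sets of 3 pools, of which the next had 5. They were bantam, miR-12, miR-71, miR-79, miR-87, miR-279, miR-305, miR-307, miR-375, miR-3739 and miR-3793, and in the scanner values after normexp and quantile normalization 10 of the 11 did so. miR-11, miR-276 and miR-277 had the opposite order in the deposited values. After normexp and quantile normalization the miRNAs with that order were miR-277, miR-34, miR-184 and miR-750. Quantile normalization gave miR-276 the same value in pools 2, 4, 5 and 6, so that order was not open to it there. miR-11 had 2539, 1115, 3030, 1597, 1603 and 1372 in pools 1 to 6. The GC content of the 11 targets ran from 33.3% to 63.6%, with a median of 43.5%, near the median of 45.5% of all 36.

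The scanner readings, before any normalization between arrays, were brighter in these pools for miRNAs beyond the 11, though not for all of the 11, and for some controls. Of the 36 miRNAs, 15 had pools 2, 4 and 6 highest in the scanner medians. After the median empty spot was taken off, an alternative chosen after seeing the data, 19 did. Both sets held miR-2, miR-317, miR-13b, miR-275, miR-279c and miR-11. The opposite order, with pools 1, 3 and 5 highest, was seen for 0 of the 36 in either of these scanner settings. Of the 11, miR-71, miR-87, miR-375 and miR-3793 were in neither set, and miR-79 and miR-3739 were among the 19 only. Of 14 calibration reporters above the empty spots on all arrays, 4 had pools 2, 4 and 6 highest, and 8 after the median empty spot was taken off. The brightest calibration reporters did not: Ctr09-3P read 16099, 37225, 16762, 34443, 38918 and 49300 in pools 1 to 6, with pool 5 above pools 2 and 4. Ctr09-3M10, a calibration reporter above the empty spots on 5 arrays and so not among the 14, read 574.4, 6480, 338.3, 5271, 290.6 and 1208 in pools 1 to 6. Less the empty spots, this was 0.53%, 16.5%, 0.55%, 14.5%, 0.062% and 1.65% of the reading of Ctr09-3P on the same array. The highest 3 pools of this control reporter were those of miR-79 and miR-3739 in the deposited values. They were also those of both miRNAs in scanner values less the median empty spot, but not in the scanner medians. The part of labelling or hybridisation in the shared pattern was not tested.

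Pairs of miRNAs from 1 genomic cluster or 1 marker list did not vary together by test. Of 15 pairs with both members detected on all arrays, 0 (0%) had a correlation past the threshold of 0.05 by two-sided exact permutation after Benjamini-Hochberg adjustment over the 15, for Pearson's r or for Spearman's rho, and 1 pair for each measure had an unadjusted p under 0.05. With 6 pools there are 720 orders, so the smallest p is 0.00139 for Pearson's r. miR-277 and miR-34 had r = 0.74 (exact permutation p = 0.0944, adjusted 0.708) and rho = 0.89 (exact permutation p = 0.0333, adjusted 0.5), and r was 0.61 without the 2 farthest pools. miR-263 and miR-263b had r = 0.94 (exact permutation p = 0.0431, adjusted 0.646) and rho = 0.60 (exact permutation p = 0.242, adjusted 0.86), but r was -0.07 without pools 2 and 5, so in the deposited values this relation rests on those pools. Without the 2 farthest pools r was 0.80 after normexp and quantile normalization and 0.90 after scaling to the pool median, with rho over all pools at 0.94 in both (exact permutation p = 0.0167, adjusted 0.25 in both). miR-275 and miR-305 had r = -0.50 (exact permutation p = 0.289, adjusted 0.902) and rho = -0.54 (exact permutation p = 0.297, adjusted 0.86), with r = -0.14 without the 2 farthest pools. The median r of the 15 pairs was -0.09, and that of all 630 pairs of the 36 miRNAs was 0.09. A p that misses the threshold with 6 pools does not show that cluster members vary apart.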

How the data were processed

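The members and the miRNA lists were chosen with earlier results of these data known. Per the labels' protocols, LC Sciences added a poly(A) tail and a tag to the small RNA and used Cy3, which makes these arrays of 1 colour. The deposited value table holds intensities on a linear scale, while how the authors corrected the background, normalized and centred them was not given in the sources used here. The table's values correlated with the reporter medians of the scanner files with a Spearman correlation of 0.789 to 0.958 per array. The deposited scanner files hold the median intensity of each of 3968 spots, with no background column per the file headers. No spot was saturated, the brightest being 60672 where a 16-bit scanner ends at 65535.

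Shares, ranks and log2 values without a pseudocount were taken from the table, and detection from 628 empty spots per array. Alternatives used scanner values less the median empty spot, or limma's normexp (limma 3.58.1, R 4.3.3, offset 50) with spots averaged, with or without quantile normalization over the 6 arrays. Named were the 10 brightest, the 8 steadiest and 8 most variable detected miRNAs, members of the lists and closest partners. Correlations used exact permutation. The steps were tested on simulated data in which absent reporters were drawn from the empty spots. Dim reporters brighter than the empty spots were thus not covered. Of the 168 reporters, 150 matched 1 RefSeq gene by name, and the files name no build, so no coordinates are given. Pools held different bees, per the series' design text, and precision is limited by having 6 arrays.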

Additional observations from a re-analysis of the deposited data

Results flagged for a closer look

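In 38 groups of 6 values checked, 2 had a single pool far from the other 5, where chance gives about 1.9. miR-87 had a log2 intensity of 11.74 in pool 3, against at least 12.34 in the others, and miR-1 had 10.22 in pool 3, against at least 11.60. Both were lowest in the same pool.

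Control reporters, which the description of miRNAs does not use for levels, gave a signal above the empty spots. Of 55 control reporters 19 were above on all 6 arrays. Among them were 5 of the 6 reporters of bee 5S ribosomal RNA, against 0 of 6 for fly 5S. ame-5S-4 read 37025, 40550, 59506, 49390, 14999 and 12452 in pools 1 to 6 before correction, with pools 5 and 6 the low ones. These were also the low pools of miR-3789, and a link was not tested.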

How the results depend on the processing

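No paired analysis was possible because only 1 group was described and no groups were compared. The count of miRNAs detected on all arrays was 21 with the 99th percentile of the empty spots, 31 with the dimmer reporters, 28 with 90% of spots required, and 36 to 47 with 1 pool left out. The share of the 5 brightest was 66.8% in scanner values less the median empty spot, 59.5% in normexp scanner values and 61.3% to 63.0% with 1 pool left out. The median SD was 0.29 with normexp and quantile normalization and 0.37 to 0.45 with 1 pool left out. The count of pairs past the threshold was 0 in all 3 alternatives. The sign of r turned in 10 of 45 single values, none of them past the threshold: with normexp and quantile normalization it was 0.048 for miR-277 and miR-317, 0.066 for miR-12 and miR-3477, 0.042 for miR-275 and miR-305 and 0.074 for miR-1 and miR-133, and with scaling to the pool median 0.44 for miR-277 and miR-317, -0.31 for miR-71 and miR-2, 0.051 for miR-2 and miR-13b, -0.10 for let-7 and miR-100, 0.16 for miR-100 and miR-125 and 0.010 for miR-263 and miR-31a. For these changes the cause was not tested. Dim reporters are limited by background: in pools 4 and 5 few of them exceeded the empty spots.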

Other observations

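Dim reporters were often highest in pool 1. Of the 132 miRNAs not detected on all arrays, 45 had their highest deposited intensity in pool 1, and 10 to 21 in each of the other pools. Pool 1 was the highest for 2 of the 36 detected miRNAs. The median intensity of the 132 was 29 in pool 1 and 22 to 24.5 in the others.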
